A study of Rattus norvegicus with 9 samples.

Results

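The genes described here encode enzymes that clear superoxide and hydrogen peroxide, the thioredoxin that supplies some of them with electrons, and the metallothioneins. Of the 10 symbols listed, 9 were rows of both deposited tables and form the group analysed: Cat, Sod1, Sod2, Gpx1, Prdx1, Prdx3, Txn1, Mt1 and Mt2A. Both tables together shared 15565 genes. The remaining symbol, Gpx4, was a row of 1 table only and is given apart. The question was how these genes stood in fatty rat liver after an 8 week high-fat diet, and after giving the plant Smilax china L., called SCL in the labels.

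RNA was sequenced from whole liver tissue of male rats of the SD strain, in 3 groups of 3 libraries. The SCL-treated group is labelled as fatty liver given SCL, with no dose, duration or diet stated. The high-fat diet group is the fatty liver model, fed that diet for 8 weeks. The normal diet group, which the labels also call wt, is the control. The design text writes SCS where the sample labels write SCL, and the same group was taken to be meant. The labels do not tie the 3 replicates of a group to separate rats, so the p-values measure the spread between these libraries, which may be technical.

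Superoxide dismutases turn superoxide into hydrogen peroxide, which catalase, glutathione peroxidases and peroxiredoxins then reduce or split. Peroxiredoxins are re-reduced by thioredoxins, and glutathione peroxidases draw on glutathione. Metallothioneins are small cysteine-rich proteins that hold zinc and copper, and in liver their genes are known to respond strongly to metals, glucocorticoids, inflammation and fasting. The transcription factor MTF1 acts on them through metal response elements, and NRF2 acts on many antioxidant genes through antioxidant response elements.

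The promoters of both metallothionein genes and of Prdx1 are shown because they carry these elements' core letters, while those of most other members do not. The sequences are the 250 bases before the gene start in RefSeq's rat assembly GRCr8, 5′ to 3′ on the gene's strand, and that assembly is not known to be the one behind the counts. Capitals mark matches to the metal response core, searched as TGCACNC and TGCGCNC, and to the antioxidant response core, searched as TGACNNNGC, on both strands. All 9 members had a promoter entry. The window of Mt1 lies at chr19:10832976-10833225 on the minus strand, that of Mt2A at chr19:10838709-10838958 on the minus strand, and that of Prdx1 at chr5:135383656-135383905 on the plus strand.
Mt1: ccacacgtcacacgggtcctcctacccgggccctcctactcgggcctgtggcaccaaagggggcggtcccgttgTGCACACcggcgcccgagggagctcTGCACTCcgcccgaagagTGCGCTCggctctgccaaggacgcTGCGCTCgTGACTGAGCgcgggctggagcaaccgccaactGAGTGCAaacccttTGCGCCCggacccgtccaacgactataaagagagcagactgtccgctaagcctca
Mt2A: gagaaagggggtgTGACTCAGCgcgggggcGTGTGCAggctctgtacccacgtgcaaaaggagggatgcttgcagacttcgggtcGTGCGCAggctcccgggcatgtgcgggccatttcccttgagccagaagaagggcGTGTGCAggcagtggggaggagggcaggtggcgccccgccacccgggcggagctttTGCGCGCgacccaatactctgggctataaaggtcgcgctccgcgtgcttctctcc
Prdx1: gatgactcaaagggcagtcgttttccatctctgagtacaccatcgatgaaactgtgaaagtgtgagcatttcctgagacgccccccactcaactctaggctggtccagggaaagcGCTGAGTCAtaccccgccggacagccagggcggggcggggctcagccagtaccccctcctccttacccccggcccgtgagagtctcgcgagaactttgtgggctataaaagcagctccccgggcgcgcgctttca

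The Mt1 window held 6 metal cores and 1 antioxidant core, and the Mt2A window held 4 metal cores and 1 antioxidant core. No match overlapped a match of the other motif. Among 33469 RefSeq rat windows of the same length, 20.6% held at least 1 metal core, 0.266% held at least 4 and 0.0269% held at least 6. An antioxidant core was present in 10.1% of those windows. Besides the metallothionein genes, Prdx1 and Sod2 each held 1 antioxidant core, and no other member held a metal core. RefSeq annotates no gene between Mt1 and Mt2A. A match describes these letters only.

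The 9 libraries held 12413774 to 15521648 reads. Mitochondrial genome transcripts made up 10.97%, 49.0% and 7.04% of the SCL-treated libraries, 4.90%, 18.8% and 44.1% of the high-fat diet libraries, and 4.63%, 3.85% and 11.2% of the normal diet libraries. SCL-treated replicate 2 and high-fat diet replicate 3 therefore stand apart, and the members' fold changes are also given without them. All 10 hepatocyte markers were measured, and their summed level was 62960 to 207671 CPM in SCL-treated liver, 67477 to 183857 in high-fat diet liver and 179354 to 206187 in normal diet liver. The low ends, 62960 and 67477 CPM, were SCL-treated replicate 2 and high-fat diet replicate 3, with 49.0% and 44.1% mitochondrial reads. These sums divide by totals that include the mitochondrial reads, so a larger mitochondrial share by itself lowers them. How much of the low values this accounts for was not tested. In bulk tissue, fewer cells of a type and less RNA per cell also cannot be told apart. CPM are reads scaled to a common library size, here on plain library totals. Below, CPM use library sizes adjusted by the trimmed mean of M values (TMM), and they compare a gene between libraries. Levels between genes are compared only in the authors' FPKM, which divides by gene length.

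By FPKM, Mt1, Cat, Gpx1, Sod1 and Txn1 were among the most abundant transcripts measured. Over all 9 libraries, Mt1 averaged 1731 ± 770 FPKM, Cat 1074 ± 235, Gpx1 1057 ± 517, Sod1 797 ± 241 and Txn1 691 ± 257 FPKM (SD, n = 9). Ranked by mean FPKM among the 15565 genes, these genes stood at places 45, 65, 68, 81 and 97. Mt2A averaged 262 ± 159 FPKM, Prdx1 232 ± 83.6, Sod2 45.6 ± 14.9 and Prdx3 35.3 ± 8.03 FPKM, at places 278, 312, 1165 and 1438. Neighbours in this order overlapped in range, apart from the step between Prdx1 and Sod2, so the order of overlapping neighbours is not firm. The enzymes found chiefly in the cytosol or peroxisome (Cat, Gpx1, Sod1, Prdx1) stood above the mitochondrial pair (Sod2, Prdx3) in FPKM.

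**Figure D1:**
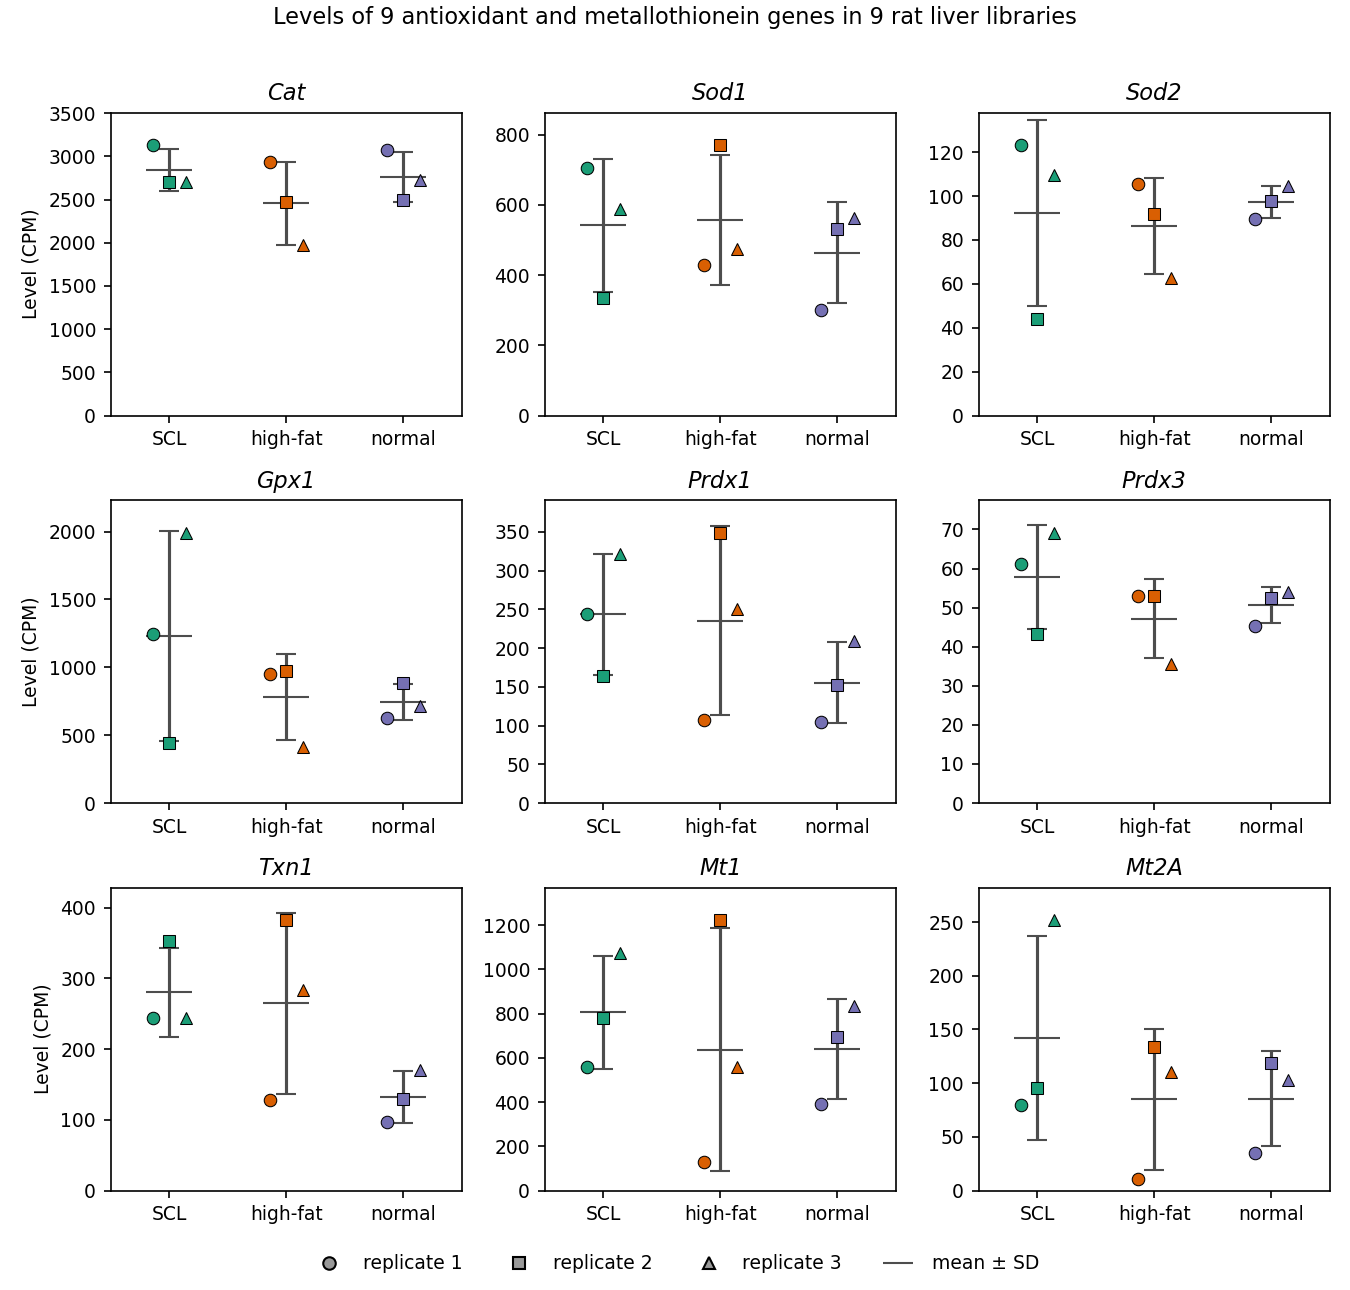
Levels of the 9 genes in every library, as TMM-scaled CPM on linear axes that start at 0, with SCL-treated, high-fat diet and normal diet libraries from left to right (points, n = 3 each) and lines for the mean ± SD. Txn1 is the gene whose SCL-treated points, 244 to 353 CPM, all lie above its normal diet points, 97.1 to 170.02 CPM, while the groups of the other 8 genes overlap.

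No member passed the test in any comparison. With edgeR's quasi-likelihood test and Benjamini-Hochberg adjustment over 12041 genes, 0 of 9 were called between SCL-treated and high-fat diet liver, where 0.0% of all genes were called. Between SCL-treated and normal diet liver 0 of 9 were called, against 0.0083% of all genes, and between high-fat diet and normal diet liver 0 of 9, against 0.0083% of all genes. DESeq2 and limma-voom also called 0 of 9 in each comparison. At an unadjusted edgeR p under 0.05 the counts were 0, 1 and 1 of 9 in the same order, against 1.95%, 6.88% and 4.32% of all genes. The single member past that mark was Txn1 both times, and both comparisons share the normal diet libraries.

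In direction, 8 of 9 members had a positive log2 fold change in SCL-treated against high-fat diet liver, with a median of 0.21 beside -0.031 over all genes. Against normal diet liver 8 of 9 were again positive in SCL-treated liver, with a median of 0.33 beside 0.026. In high-fat diet against normal diet liver 4 of 9 were positive, with a median of -0.0080 beside 0.034. Of all genes 46.7%, 51.8% and 52.8% were positive in these comparisons, in the same order. Scaling by library totals alone moved the median of all genes to -0.19, -0.21 and -0.030 in these comparisons and left 5, 6 and 4 of 9 members positive. The comparisons share libraries, so the 2 counts of 8 are not separate observations. Single libraries moved these counts. In high-fat diet against normal diet liver 2 of 9 were positive without high-fat diet replicate 2 (median -0.18), 5 without replicate 1 (median 0.42) and 7 without replicate 3 (median 0.067). In SCL-treated against high-fat diet liver 9 of 9 were positive without high-fat diet replicate 2, and 5 of 9 when replicate 1 of that group was left out.

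The fold changes were also computed without the libraries over 40% mitochondrial, which leaves 2 SCL-treated and 2 high-fat diet libraries. In SCL-treated over high-fat diet liver the log2 fold change was then 1.21 for Mt2A, 0.75 for Gpx1, 0.31 for Prdx1, 0.29 for Prdx3, 0.27 for Mt1, 0.23 for Sod2, 0.11 for Cat, 0.11 for Sod1 and -0.066 for Txn1. In SCL-treated over normal diet liver it was 1.11 for Gpx1, 0.95 for Mt2A, 0.87 for Txn1, 0.86 for Prdx1, 0.47 for Sod1, 0.36 for Prdx3, 0.34 for Mt1, 0.25 for Sod2 and 0.067 for Cat. In high-fat diet over normal diet liver it was 0.94 for Txn1, 0.54 for Prdx1, 0.36 for Gpx1, 0.36 for Sod1, 0.070 for Mt1, 0.063 for Prdx3, 0.015 for Sod2, -0.039 for Cat and -0.26 for Mt2A. None of these passed the edgeR threshold after adjustment.

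**Figure D2:**
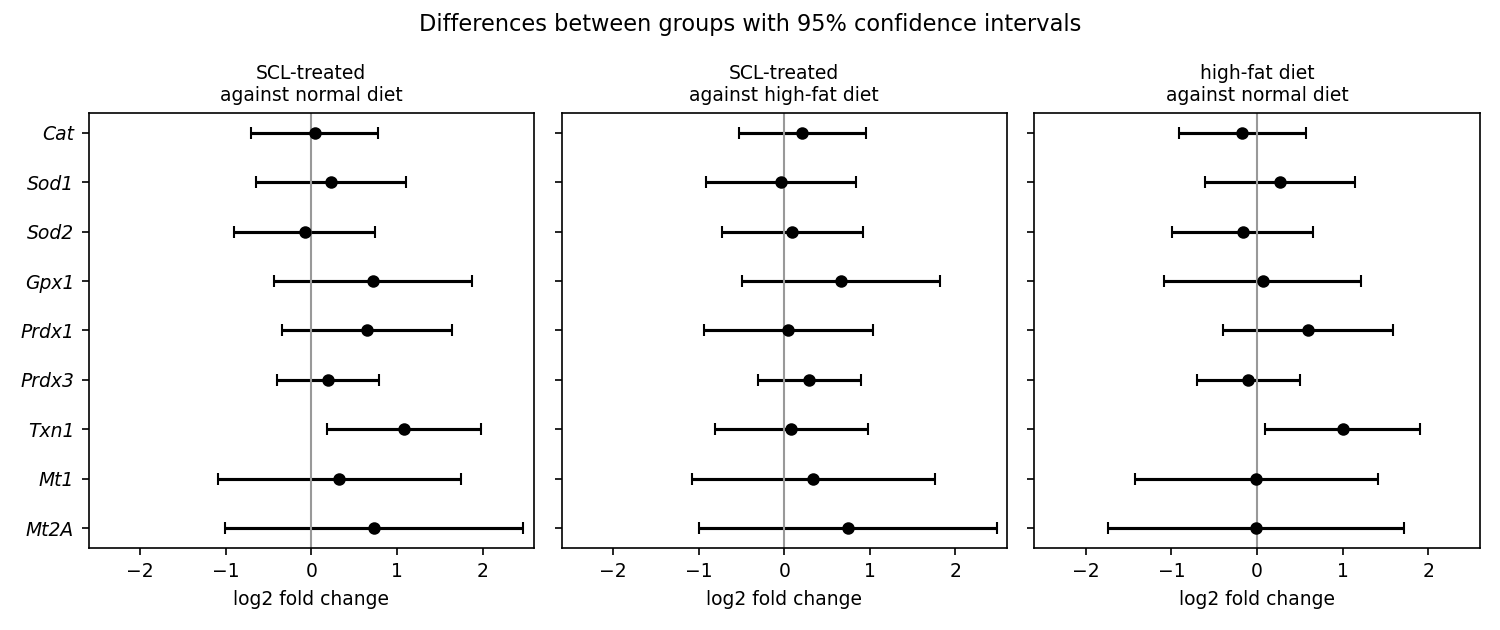
Log2 fold changes of the 9 genes with 95% confidence intervals (lines) in SCL-treated against normal diet, SCL-treated against high-fat diet and high-fat diet against normal diet liver, from left to right, from edgeR. Every interval crosses 0 except those of Txn1 against normal diet, 0.18 to 1.98 for SCL-treated and 0.098 to 1.90 for high-fat diet liver.

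Txn1, the cytosolic thioredoxin, showed the clearest separation of any member. SCL-treated libraries held 244, 353 and 244 CPM, high-fat diet libraries 128, 382 and 284 CPM, and normal diet libraries 97.1, 130.1 and 170.02 CPM. All 3 SCL-treated libraries stood above all 3 normal diet libraries, and so did high-fat diet replicates 2 and 3, while high-fat diet replicate 1 lay inside the normal diet range. Txn1 was thus the 1 of 9 members that did not overlap between SCL-treated and normal diet liver, higher in SCL-treated liver, against 7.47% of all genes higher in that way and 15.3% in either direction. Between SCL-treated and high-fat diet liver 0 of 9 members had groups that did not overlap, against 4.78% of all genes. Between high-fat diet and normal diet liver it was 0 of 9, against 10.6%.

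For Txn1 the log2 fold change of SCL-treated over normal diet liver was 1.08 (SE 0.41, 95% interval 0.18 to 1.98), with an edgeR p of 0.023 that became 0.66 after adjustment over all genes. Over its alternatives the adjusted p ran between 0.057 and 0.99. High-fat diet over normal diet liver gave 1.00 (SE 0.41, 95% interval 0.098 to 1.90), with an edgeR p of 0.033 and an adjusted p of 0.91, which ran between 0.062 and 1.00 over the alternatives. The authors' deposited table, which puts normal diet over high-fat diet, gives -0.99 for Txn1, with a p-value of 0.028 and an adjusted p-value of 0.62. SCL-treated over high-fat diet liver gave 0.083 (SE 0.40), which corresponds to a fold of 1.06 with a 95% interval of 0.571 to 1.97. That interval holds both lower and higher levels, and does not show that the 2 groups were alike.

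The Txn1 difference was smaller with the mitochondrial share as a covariate, and without the libraries over 40% mitochondrial. Leaving those libraries out also drops SCL-treated replicate 2, which held the highest Txn1 level of its group. With that share as a covariate the log2 fold change was 0.64 for SCL-treated and 0.49 for high-fat diet over normal diet liver, and without the libraries over 40% mitochondrial it was 0.87 and 0.94. Without high-fat diet replicate 2, the high-fat diet value was 0.62. Of 7 erythroid markers 4 were measured. Their summed level on library totals was 964, 1018 and 322 CPM in SCL-treated libraries. High-fat diet libraries held 288, 489 and 1081 CPM, and normal diet libraries 362, 153 and 420 CPM. All 4 were positive in SCL-treated and 3 in high-fat diet against normal diet liver. In SCL-treated against normal diet liver the median log2 fold change of these markers was 1.40. It was also positive for T and NK cell (1.07), B and plasma cell (0.98), cholangiocyte (0.92) and neutrophil (0.77) markers. For hepatocyte (-0.46), Kupffer cell and macrophage (-0.36), sinusoidal endothelium (-0.18) and stellate cell (-0.71) markers it was negative. The part of red cell RNA, or of any other cell type, in the Txn1 values was not tested.

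**Figure D3:**
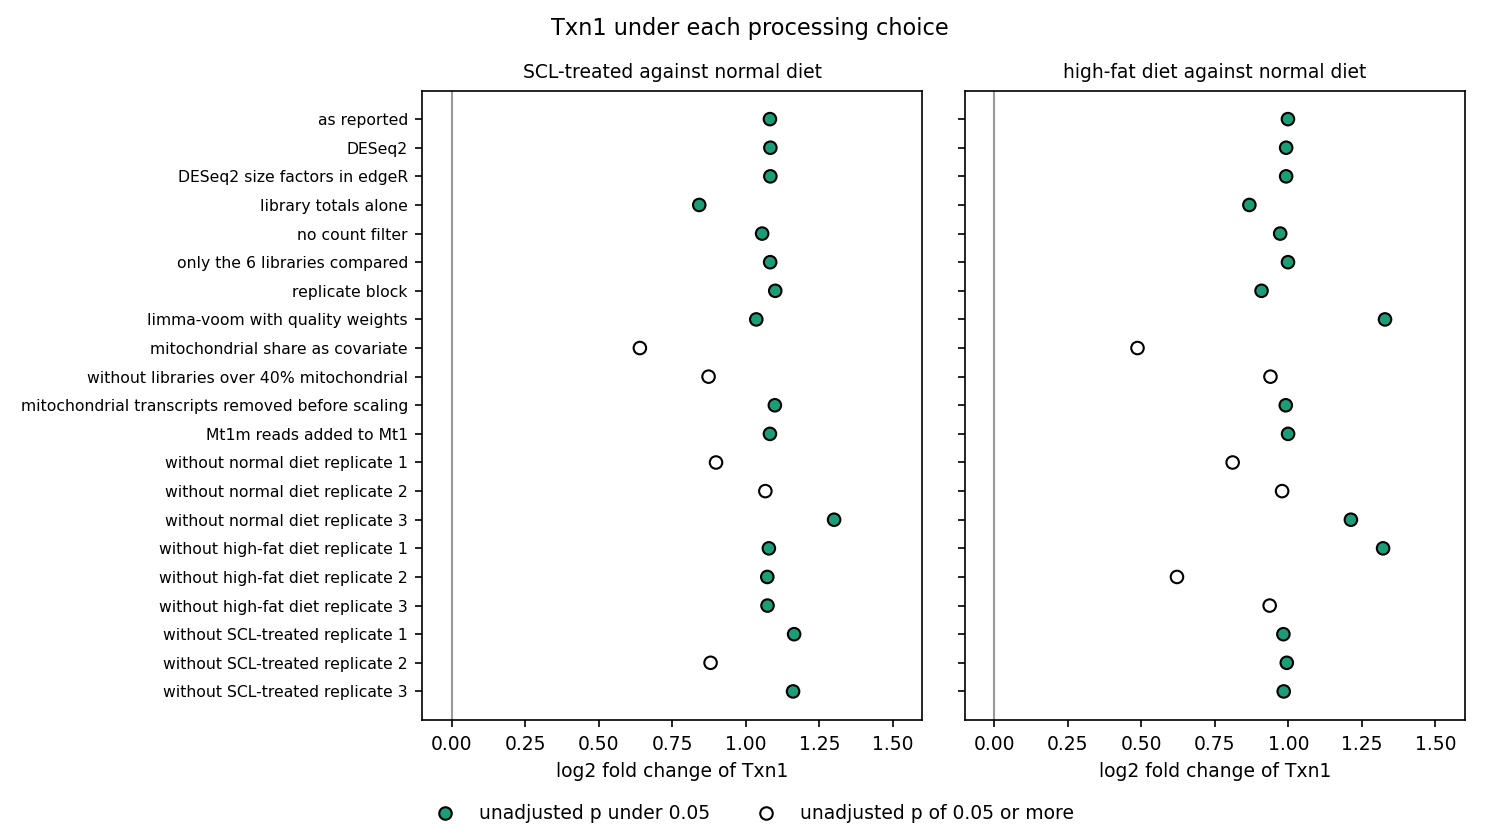
Log2 fold change of Txn1 (horizontal axis) under each processing choice (rows), for SCL-treated against normal diet at left and high-fat diet against normal diet at right; filled points have an unadjusted p under 0.05. All points lie above 0, between 0.64 and 1.30 at left and between 0.49 and 1.33 at right, and the lowest at each side is the fit with the mitochondrial share as covariate.

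Prdx1, the cytosolic peroxiredoxin that thioredoxin re-reduces, held 244, 164 and 321 CPM in SCL-treated libraries, 107, 349 and 251 CPM in high-fat diet libraries, and 105, 152 and 209.6 CPM in normal diet libraries. The groups overlapped, and the high-fat diet libraries held both the highest and the second lowest value of all 9. Its log2 fold change was 0.65 (SE 0.45; edgeR adjusted p = 0.67) in SCL-treated and 0.60 (SE 0.45; adjusted p = 0.91) in high-fat diet over normal diet liver. The high-fat diet value was 0.18 with replicate 2 of that group left out, and 0.94 with replicate 1 left out. Reads of Txn1 per read of Prdx1 were 0.997, 2.15 and 0.760 in SCL-treated libraries, 1.20, 1.10 and 1.13 in high-fat diet libraries, and 0.923, 0.857 and 0.811 in normal diet libraries. The ratio needs no scaling between libraries. It was above the normal diet range in every high-fat diet library, and SCL-treated libraries lay on both sides of that range. The Mt1 to Mt1m ratio, given below, also separated high-fat diet from normal diet libraries. The ratios of Sod1 to Sod2, Prdx1 to Prdx3, Cat to Gpx1 and Mt1 to Mt2A overlapped between those groups. The ratios carry no test, and no share over other gene pairs was computed.

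Prdx3, the mitochondrial peroxiredoxin, held 61.2, 43.2 and 69.1 CPM in SCL-treated libraries, 53.1, 52.9 and 35.4 CPM in high-fat diet libraries, and 45.3, 52.4 and 54.1 CPM in normal diet libraries. The lowest SCL-treated and the lowest high-fat diet library were those with over 40% mitochondrial reads. Its log2 fold changes were 0.30 for SCL-treated over high-fat diet, 0.19 for SCL-treated over normal diet and -0.10 for high-fat diet over normal diet liver (SE 0.27 each).

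Cat, the peroxisomal enzyme that splits hydrogen peroxide, held the most reads of any member in every library and was the steadiest between libraries. SCL-treated libraries held 3129, 2708 and 2708 CPM, high-fat diet libraries 2932, 2468 and 1972 CPM, and normal diet libraries 3073, 2500 and 2724 CPM. The groups overlapped, with high-fat diet replicate 3 the lowest of all 9 libraries. The fold for SCL-treated over normal diet liver was 1.03 with a 95% interval of 0.616 to 1.72, and for SCL-treated over high-fat diet liver it was 1.16 with an interval of 0.693 to 1.94. Cat's spread within groups, a pooled SD of 0.20 on the log2 scale, was at percentile 4.75 of 12041 genes.

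Gpx1, a selenoprotein that reduces peroxide with glutathione, varied much more. SCL-treated libraries held 1247, 445 and 1991 CPM, high-fat diet libraries 949.6, 971 and 412 CPM, and normal diet libraries 630, 887 and 716 CPM. In the SCL-treated and the high-fat diet group the library over 40% mitochondrial was the lowest, and the remaining SCL-treated libraries were the highest of all 9. The log2 fold change of SCL-treated over high-fat diet liver was 0.66 (SE 0.52; edgeR adjusted p = 1.00), and it was 0.12 without SCL-treated replicate 3 and 1.06 without SCL-treated replicate 2. SCL-treated over normal diet liver gave 0.72 (SE 0.52; adjusted p = 0.68), and 1.11 without the libraries over 40% mitochondrial. High-fat diet over normal diet liver gave 0.063 (SE 0.52), 0.36 without those libraries and 0.69 with the mitochondrial share as a covariate.

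Sod1, the copper and zinc dismutase of the cytosol, held 704, 334 and 589 CPM in SCL-treated libraries, 428, 770 and 475 CPM in high-fat diet libraries, and 300.4, 531 and 562 CPM in normal diet libraries. Each group held libraries high and low, and all groups overlapped. Its log2 fold changes were -0.040 for SCL-treated over high-fat diet, 0.22 for SCL-treated over normal diet and 0.26 for high-fat diet over normal diet liver (SE 0.40 each). Sod2, the manganese dismutase of mitochondria, held 123, 44.0 and 109.6 CPM in SCL-treated libraries, 105, 91.7 and 62.5 CPM in high-fat diet libraries, and 89.7, 97.6 and 104 CPM in normal diet libraries. The lowest Sod2 levels were again in the libraries over 40% mitochondrial, as for Prdx3 and Gpx1. Its log2 fold changes were 0.093, -0.076 and -0.17 in the same order (SE 0.37 each), and the last was 0.015 without those libraries.

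Mt1 and Mt2A, which bind zinc and copper, had the largest spread of the group. Mt1 held 561, 781 and 1074 CPM in SCL-treated libraries, 130.4, 1222 and 559.9 CPM in high-fat diet libraries, and 392, 695 and 835 CPM in normal diet libraries. Mt2A held 79.5, 95.3 and 252 CPM in SCL-treated libraries, 10.4, 133 and 111 CPM in high-fat diet libraries, and 35.2, 119 and 103 CPM in normal diet libraries. High-fat diet replicate 1, the library with M2 in its title, was the lowest for both genes. High-fat diet replicate 2 was the highest or the second highest library for both. Within the high-fat diet group the highest library was 9.37 times the lowest for Mt1 and 12.9 times for Mt2A.

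**Figure D4:**
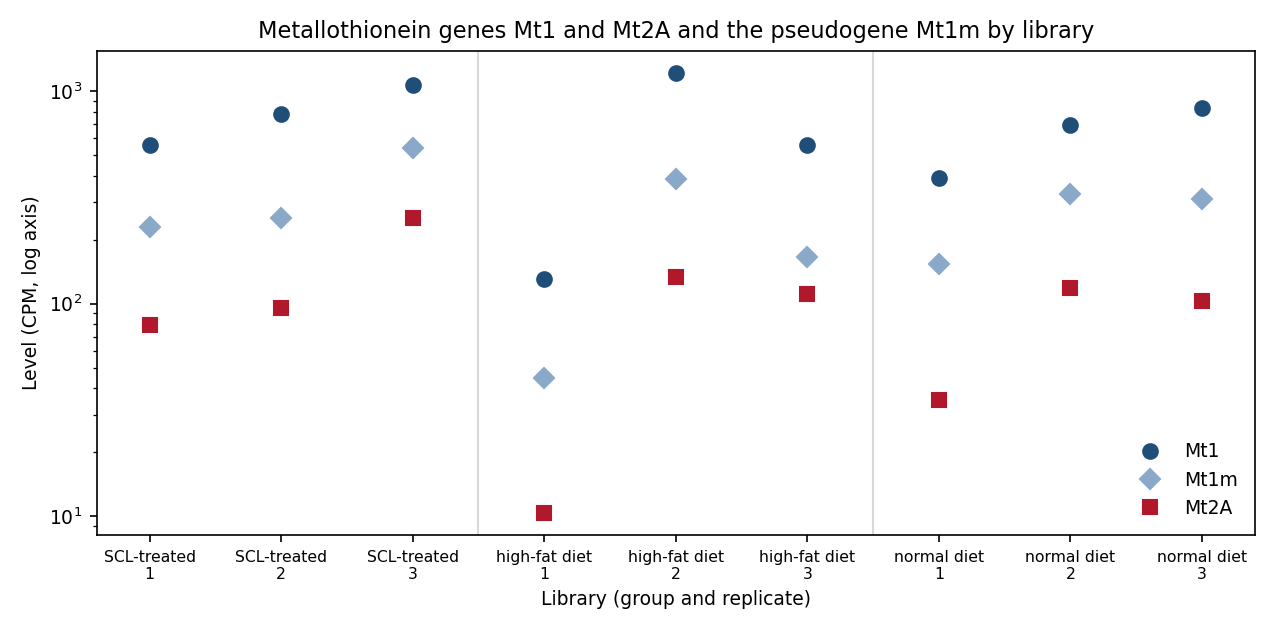
Mt1, Mt2A and the pseudogene Mt1m in each library, as TMM-scaled CPM on a log axis, with SCL-treated, high-fat diet and normal diet libraries from left to right. High-fat diet replicate 1 is lowest for each gene, at 130.4 CPM for Mt1, 10.4 CPM for Mt2A and 44.7 CPM for Mt1m.

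No difference between groups was detectable against that spread. Mt1 in SCL-treated over high-fat diet liver had a log2 fold change of 0.34 (SE 0.64, 95% interval -1.08 to 1.76), and SCL-treated over normal diet liver gave 0.33 (SE 0.64). High-fat diet over normal diet liver gave -0.0080 (SE 0.64) for Mt1, with 0.47 when high-fat diet replicate 1 was left out and -0.91 when replicate 2 of that group was. Mt2A gave 0.75 (SE 0.79, 95% interval -0.99 to 2.48), 0.73 (SE 0.79) and -0.012 (SE 0.78) in the same comparisons. Without SCL-treated replicate 3 the Mt2A values of SCL-treated liver were 0.050 over high-fat diet and 0.021 over normal diet liver. The highest with a single library left out were 1.25 over high-fat diet liver, without high-fat diet replicate 2, and 1.04 over normal diet liver, without normal diet replicate 2. These edgeR adjusted p-values ran between 0.75 and 1.00.

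RefSeq annotates Mt1m, another metallothionein locus, as a pseudogene. Whether reads were divided between it and Mt1 was not tested, so the Mt1 counts are uncertain to that extent. Mt1m held 230 CPM, 254 CPM and 538 CPM in SCL-treated libraries, 44.7, 388 and 166 CPM in high-fat diet libraries, and 154, 328 and 310.5 CPM in normal diet libraries. Mt1 reads per Mt1m read lay between 1.996 and 3.36 in all 9 libraries, and the ratio was higher in all high-fat diet libraries (2.92, 3.15 and 3.36) than in normal diet libraries (2.55, 2.12 and 2.69), with SCL-treated libraries (2.43, 3.07 and 1.996) on both sides. With Mt1m reads added to Mt1, the log2 fold change was 0.45 for SCL-treated over high-fat diet and -0.11 for high-fat diet over normal diet liver. Mt1 reads per Mt2A read were 7.05, 8.20 and 4.26 in SCL-treated libraries, 12.6, 9.15 and 5.06 in high-fat diet libraries, and 11.2, 5.85 and 8.14 in normal diet libraries, and the groups overlapped.

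The within-group spread thus ordered the members from Cat and Prdx3, at pooled SDs of 0.20 and 0.29 on the log2 scale, to Mt1 and Mt2A, at 1.04 and 1.40. The median of all 12041 genes was 0.50. Cat and Prdx3 were at percentiles 4.75 and 16.3 of all genes, Mt1 and Mt2A at 90.1 and 97.3. The other 5 lay between 0.51 for Sod1 and 0.77 for Gpx1, at percentiles 50.7 and 77.5.

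**Figure D5:**
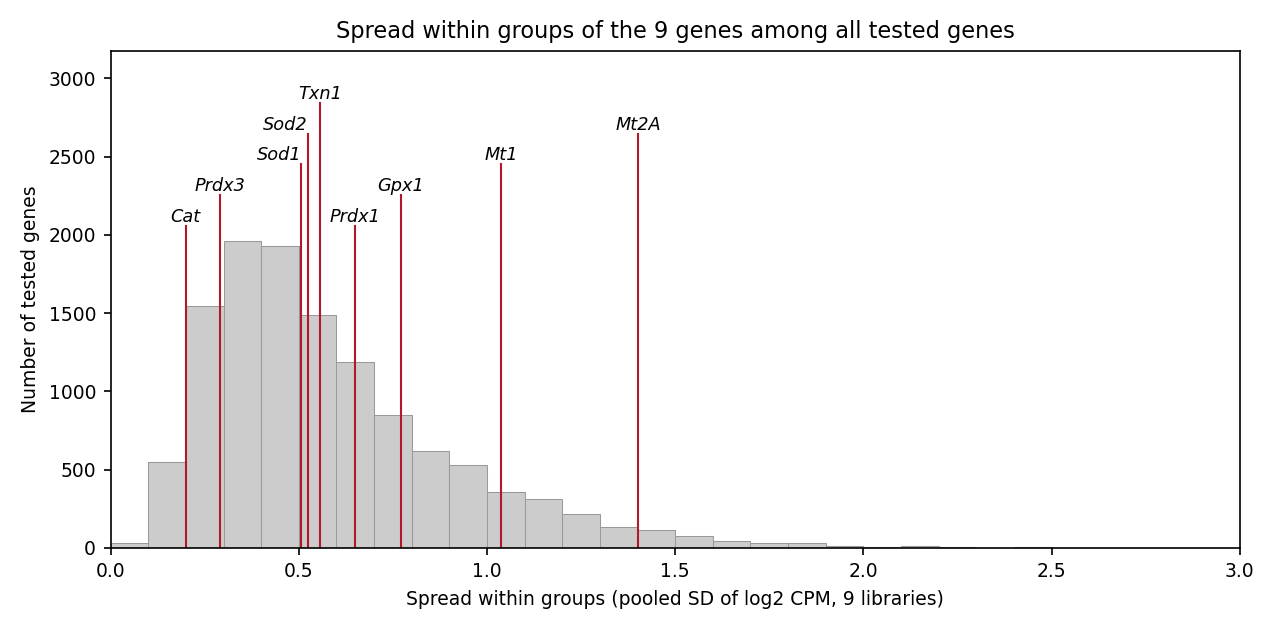
Number of tested genes (vertical axis) by the pooled within-group SD of log2 CPM over 9 libraries (horizontal axis), with the 9 members as lines. Cat at 0.20 lies at the left edge of the distribution and Mt2A at 1.40 in its right tail, with Sod1, Sod2 and Txn1 near the median of 0.50.

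Over the 9 libraries, Mt1 and Mt2A varied together, with a Pearson r of 0.95 of log2 CPM, and Gpx1 and Prdx3 with an r of 0.95. The genes most like the sum of Mt1 and Mt2A were Mt1m (r = 0.97), Ifitm1, Rps10, Rps27 and Dctn3 (r = 0.94 each). Those most like Cat were Jtb and Gpn3 (r = 0.97 each), Lhfpl2 (r = 0.94), Slc22a5 (r = 0.92) and Gpnmb (r = 0.91). Those most like Gpx1 were Sec13, Gstm7, Tmem98 and Haao (r = 0.97 each) and Psme1-ps1 (r = 0.96). These correlations are descriptions over 9 libraries that differ in depth and mitochondrial share, which all genes of a library have in common, picked as the highest of 9650 or 9651 genes, and carry no test.

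The members' summed reads, of which Cat is the largest part, made 0.705% to 0.809% of the reads outside the mitochondrial genome in SCL-treated libraries, 0.628% to 0.753% in high-fat diet libraries and 0.547% to 0.616% in normal diet libraries. As shares of all reads the means were 0.575 ± 0.141%, 0.527 ± 0.134% and 0.553 ± 0.034% (SD, n = 3 each), which overlapped. The first shares depend on what else the libraries hold, and no test was made on the sum. How often sums of other genes separate the groups likewise was not computed, so their separation is not a result about these members.

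Further genes of the pathway were counted from lists, and 0 members of any list were called in any comparison by edgeR. Of 15 further superoxide and peroxide enzymes, 12 were positive in SCL-treated against high-fat diet, 11 in SCL-treated against normal diet and 10 in high-fat diet against normal diet liver, with medians of 0.21, 0.40 and 0.067. The most abundant were Uox, urate oxidase, at 814 ± 189 CPM in SCL-treated, 618 ± 103 CPM in high-fat diet and 511 ± 7.59 CPM in normal diet liver (SD, n = 3 each), and Prdx5, a peroxiredoxin, at 202 ± 73.0, 186 ± 56.4 and 177 ± 59.4 CPM. Of 21 thioredoxin and glutathione recycling genes 15, 13 and 9 were positive in the same comparisons, with medians of 0.16, 0.17 and -0.067. Of all genes 46.7%, 51.8% and 52.8% were positive in that order. There Idh1, which makes NADPH, held 283 ± 99.5 CPM in SCL-treated, 264 ± 68.6 CPM in high-fat diet and 339.6 ± 1.52 CPM in normal diet liver, and Txn2, the mitochondrial thioredoxin, 151 ± 50.5, 129.9 ± 17.2 and 132 ± 26.3 CPM.

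Gpx1 needs selenium, and of 11 tested genes for selenoproteins and for selenoprotein synthesis 6, 7 and 6 were positive in SCL-treated against high-fat diet, SCL-treated against normal diet and high-fat diet against normal diet liver. The medians were 0.056, 0.31 and 0.054. Selenop, which carries selenium in plasma, held 885 ± 628 CPM in SCL-treated, 851 ± 1122 CPM in high-fat diet and 1665 ± 783 CPM in normal diet liver. Dio1, a deiodinase, held 169.9 ± 31.1, 123 ± 34.5 and 80.3 ± 20.7 CPM in that order, with a log2 fold change of 1.08 (SE 0.32; edgeR adjusted p = 0.66) in SCL-treated over normal diet liver. Of 14 zinc and copper genes 4, 4 and 5 were positive, with medians of -0.092, -0.46 and -0.23. Among them Cp, ceruloplasmin, the copper-bearing plasma protein, held 1418 ± 328 CPM in SCL-treated, 1123 ± 214 CPM in high-fat diet and 1989.7 ± 319 CPM in normal diet liver, and Atox1, a copper chaperone, 189 ± 53.3, 169 ± 85.9 and 122 ± 57.1 CPM.

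Of 8 glucocorticoid response genes 3 were positive in each comparison, with medians of -0.18, -0.47 and -0.16 in the same order. Of 18 NRF2 pathway genes 8, 10 and 10 were positive, with medians of -0.031, 0.15 and 0.033. The most abundant were Tat, tyrosine aminotransferase, at 930.4 ± 318 CPM in SCL-treated, 847 ± 269 CPM in high-fat diet and 887 ± 135 CPM in normal diet liver, and Gstm1, a glutathione transferase, at 1019 ± 351, 1040.3 ± 239 and 689.6 ± 162 CPM. Hsd11b1, which regenerates active glucocorticoid, held 1228 ± 108, 913 ± 262 and 788 ± 179.8 CPM, and Ephx1, an epoxide hydrolase, 1234 ± 827, 860.02 ± 566 and 548 ± 89.2 CPM. In SCL-treated against normal diet liver, the groups of 4 NRF2 pathway genes did not overlap and were higher and those of 2 were lower, against 15.3% of all genes in either direction. Among the selenoprotein genes 4 of 11 were higher and 1 lower in that way. The counts were 2 and 1 of 15 further superoxide and peroxide enzymes, and 1 and 2 of 21 recycling genes. Of 14 zinc and copper genes 0 were higher and 1 lower, and of 8 glucocorticoid response genes 1 and 2.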

How the data were processed

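Liver RNA extracted with Trizol was sequenced from NEBNext Ultra libraries, per the labels' protocols. In 2 deposited tables, both with the high-fat diet libraries, the authors gave raw read counts, a normalized signal (size-factor scaled, not used here) and FPKM per gene, per the file headers. The authors' own results columns there hold a log2 ratio, a p-value and its adjusted form. DESeq2 (no version) and genome build mm9 appear in the submitters' processing notes. That is a mouse build and the gene symbols are rat ones, so the build of the counts is treated as not given in the sources used here, as are the aligner, counter and strand setting.

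The members and lists were chosen with earlier results of these data known. For the 15565 shared genes, 1 edgeR 4.0.16 quasi-likelihood model (R 4.3.3) was fitted to the deposited counts of all 9 libraries by group, after filterByExpr with a minimum count of 10 left 12041 genes and TMM scaling, with Benjamini-Hochberg adjustment and calls under 0.05. All 9 members passed that filter. CPM use TMM-scaled library sizes. Correlations use log2 CPM with a prior of 2 reads. Library totals of 12413774 to 15521648 reads make counting error small for the members, which held 198 to 56080 reads a library. Counts of every replicate pair differed beyond sampling noise. Every member is named in the text, and of each list the 2 genes of highest FPKM where none was called. Alternatives were DESeq2 1.42.0, its size factors, library totals, no filter, 6 libraries only, a replicate block, limma-voom 3.58.1, the mitochondrial share as covariate, leaving out libraries over 40% mitochondrial, removing mitochondrial transcripts, each library left out, and, chosen after seeing the data, Mt1m reads added to Mt1. The fits were also run on simulated counts, in which unchanged genes had the same scaled mean in every library. That simulation did not include the libraries' differing mitochondrial shares, and its outcome is not given here.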

Additional observations from a re-analysis of the deposited data

Results flagged for a closer look

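Gpx4, the glutathione peroxidase that acts on lipid peroxides, was a row only of the table of SCL-treated and high-fat diet libraries. It is given here because its reads lie outside the comparisons. It held 3, 2 and 3 reads in the SCL-treated libraries, 8 in sum, and 0 reads in each high-fat diet library, where a count of 0 allows up to 3 reads. These counts cover counting error only and are too few for a comparison. Gpx4 is known as a widely expressed gene in liver, and whether its reads were assigned elsewhere in the counting was not tested, so its expression cannot be read from them. Gpx4 was not analysed in normal diet liver.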

How the results depend on the processing

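The number of members called was 0 of 9 under all 20 alternatives in each comparison. Among all genes, 1 was called in high-fat diet against normal diet liver, against 50 with DESeq2, 26 with limma-voom, 2 with no count filter, 0 with library totals, with the 6 libraries alone or without the libraries over 40% mitochondrial, and 1 to 4 with single libraries left out. SCL-treated against high-fat diet liver gave 0 by edgeR (235 at an unadjusted p under 0.05), 1 with DESeq2 and 0 with limma-voom. SCL-treated against normal diet liver gave 1, against 40 with DESeq2, 152 with limma-voom, 0 with library totals or without the libraries over 40% mitochondrial, and 0 to 1 with single libraries left out. The cause of these shifts was not tested.

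Of 540 member values under alternatives, 490 kept their direction and 50 changed sign, none of them called. In high-fat diet against normal diet liver, the log2 fold change changed sign with the mitochondrial covariate for Sod2 (0.21) and Prdx3 (0.11), without libraries over 40% mitochondrial for Sod2 (0.015), Prdx3 (0.063) and Mt1 (0.070), and with limma-voom for Gpx1 (-0.077), Mt1 (0.32) and Mt2A (0.21). In SCL-treated against high-fat diet liver it did so with library totals for Sod2 (-0.066), Prdx1 (-0.029) and Txn1 (-0.026), with limma-voom for Prdx1 (-0.082), Txn1 (-0.29) and Mt1 (-0.040), and without libraries over 40% mitochondrial for Sod1 (0.11) and Txn1 (-0.066). In SCL-treated against normal diet liver it did so with library totals for Cat (-0.18) and Prdx3 (-0.028), and for Sod2 with limma-voom (0.17), the covariate (0.23) and without those libraries (0.25).

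With single libraries left out, the log2 fold change spanned 0 in high-fat diet against normal diet liver for Sod1 (-0.049 to 0.42), Sod2 (-0.34 to 0.013), Gpx1 (-0.13 to 0.36), Prdx3 (-0.20 to 0.061), Mt1 (-0.91 to 0.47) and Mt2A (-0.52 to 0.51). It did so in SCL-treated against high-fat diet liver for Sod1 (-0.27 to 0.27), Sod2 (-0.17 to 0.43), Prdx1 (-0.30 to 0.45), Txn1 (-0.24 to 0.45) and Mt1 (-0.14 to 1.23). It also did so in SCL-treated against normal diet liver for Cat (-0.042 to 0.12), Sod1 (-0.016 to 0.48) and Sod2 (-0.35 to 0.26).

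The labels do not say whether replicate numbers pair the libraries. Same-numbered libraries' deviations from group means correlated between -0.35 and 0.60, and the same number correlated best in 7 of 18 comparisons. With 3 libraries a group, these values cannot decide whether same-numbered libraries share a batch or litter. With the replicate block, 1, 0 and 1 genes were called in high-fat diet against normal diet, SCL-treated against high-fat diet and SCL-treated against normal diet liver, and the Sod1 log2 fold change of SCL-treated over high-fat diet liver was 0.00061.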
